A study of Homo sapiens with 4 samples.

Results

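The peaks described here are those on the mitochondrial genome (chrM) in a list of RNA regions recovered with PRMT5, an arginine methyltransferase that the study examined as an RNA-binding protein. All peaks on chrM were taken, on both strands, which gave 41 of the 18993 peaks in the list. The cells were Jurkat, a long-established line from a human T cell leukaemia. All libraries share 48 hours of stimulation with PHA (phytohaemagglutinin, a T cell mitogen) and UV crosslinking, given in the sample labels as 264 nm and 400 mJ. RNA from a FLAG immunoprecipitation (2 PRMT5 RIP libraries, numbered 1 and 2) was set against RNA of the lysate (2 input libraries, numbered 1 and 2). The construct that carried the FLAG tag is not given in the sample labels, and no immunoprecipitation without PRMT5 was analysed here.

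Each peak comes with a single pooled value from the PRMT5 RIP (RIP below) and a single one from input, both in reads scaled to library size (RPM), so no spread between libraries, no interval and no test can be given for any value. Throughout, the ratio is PRMT5 RIP over input, and the log2 RPM ratio was taken after 0.01 was added to both values. A T cell origin was checked by marker genes, of which 9 of 11 had a peak that could be matched by name, CD3D being the highest with 417 RPM in input. Of 9 markers of other cell types, 1 had a peak, the B cell gene CD79A with 21.9 RPM in input, and the rest had no peak matched by name.

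Human mitochondrial DNA is a small circle whose strands are called heavy and light. Most genes are read from the heavy strand and lie on the plus strand of the reference, while MT-ND6 and a set of tRNAs are read from the light strand and lie on the minus strand. Each strand is transcribed as a long precursor in which tRNAs sit between the other genes, and cutting the tRNAs out at both ends releases the rRNAs and mRNAs. The mRNAs code for core subunits of the respiratory chain and ATP synthase, and the rRNAs and tRNAs serve translation inside the organelle.

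All 13 mRNA genes and both rRNA genes (2 of 2) carried a peak, and of the 22 tRNA genes 15 did. The tRNA genes without a peak were MT-TF, MT-TV, MT-TK, MT-TR, MT-TH, MT-TS2 and MT-TL2, all 7 on the plus strand, so that 7 of 14 plus-strand tRNA genes had a peak against 8 of 8 on the minus strand. Peaks covered 99.4% of the annotated length of the minus-strand genes and 81.9% of that of the plus-strand genes. The 41 peaks, 33 on the plus and 8 on the minus strand, were each given as 1 block and together spanned 12760 nt.

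No chrM peak was antisense to a gene. Every peak lay inside genes of its own strand, with 0 nt outside them, and the only contact with a gene of the other strand was the 3 nt that MT-TI and MT-TQ share. In genome coordinates, the lower end of all 41 peaks lay a multiple of 25 nt from the lower end of their gene or block of overlapping genes. Peaks thus lay only in annotated genes on their own strand, and the list gives no value for RNA antisense to a gene or for the control region between MT-TP and MT-TF.

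Mitochondrial RNA was abundant in both kinds of library and was near parity between them. The peaks summed to 103108 RPM in RIP against 92972 RPM in input, a ratio of 1.11, and 5 of the 10 peaks with the highest RPM of the whole list were mitochondrial in either library type. Of the summed RPM of the list itself, they made up 13.6% in PRMT5 RIP and 19.0% in input. The mitochondrial sum was thus slightly higher in PRMT5 RIP on the RPM scale and lower as a share of the list, since the peaks of the other chromosomes together had a ratio of 1.65. The mRNA peaks held 98.6% of the mitochondrial RPM in RIP against 99.4% in input, the tRNA peaks held 1.12% and 0.363%, and the rRNA peaks held 0.247% and 0.280%.

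**Figure D1:**
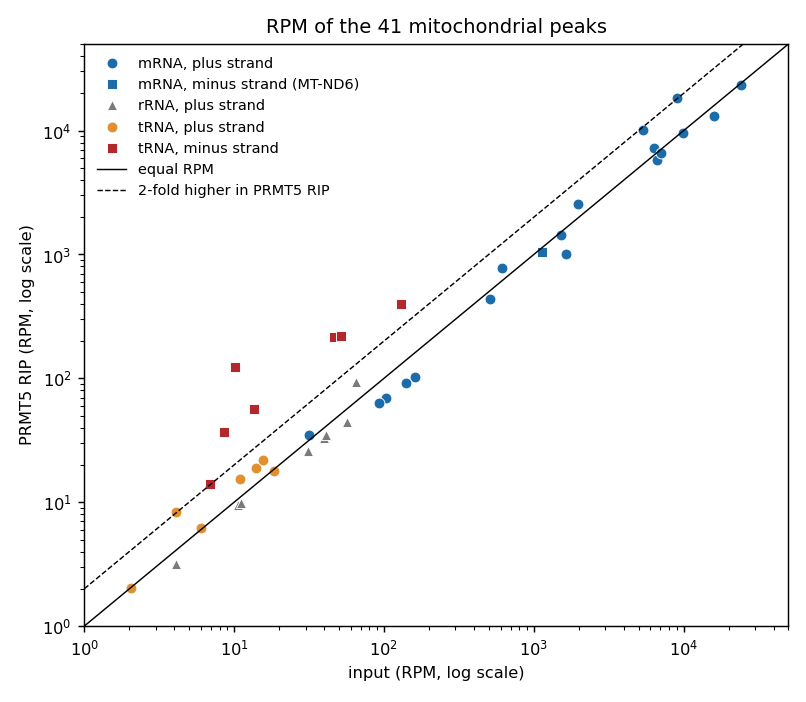
RPM in PRMT5 RIP (vertical) against RPM in input (horizontal) for the 41 mitochondrial peaks, both on log scales, with 1 pooled value per peak and therefore no error bars. Most mRNA, rRNA and plus-strand tRNA peaks run along the line of equal RPM, with MT-CYB and MT-TW at the line of a 2-fold ratio and MT-ND1 just below it, and the 7 minus-strand tRNA peaks, from 13.97 to 397 RPM in PRMT5 RIP, lie at that line (MT-TQ) or above it.

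Peak by peak, the mitochondrial genome stood below the rest of the list. The list holds called peaks only, which summed to 755969 RPM in PRMT5 RIP against 489424 RPM in input. Its medians and shares are therefore no baseline for all RNA. The median log2 RPM ratio over the 41 peaks was -0.03, with the middle of the peaks between -0.22 and 0.50 and the whole range from -0.69 to 3.59, against a median of 1.10 over the 18952 peaks of the other chromosomes. In 22 of the 41 peaks RPM was below input, which is 53.7%, where 3.84% of all peaks in the list were lower. Relative to the median of the other chromosomes, 35 of the 41 peaks were below it and 6 above. A ratio of 2-fold or more was reached by 9 mitochondrial peaks, 22.0% of them, against 55.7% over the list, and a ratio of 4-fold by 5, against 15.1% over the list. Abundance moved with the ratio across the list: the 61 peaks of the other chromosomes of 1000 RPM or more in input showed a median log2 RPM ratio of 0.49, and the 12 mitochondrial peaks at that level had -0.07. The part of abundance in the low mitochondrial ratios was not tested further.

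**Figure D2:**
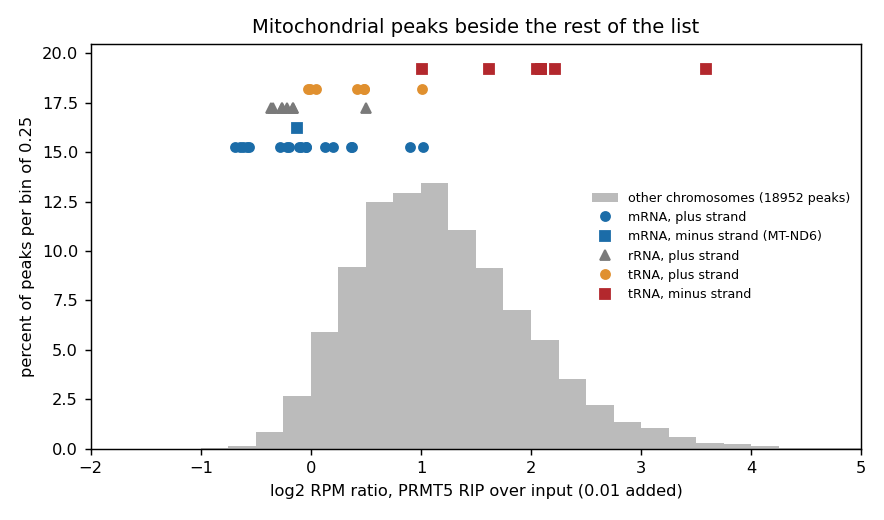
Distribution of the log2 RPM ratio over the peaks of the other chromosomes (grey bars, percent of peaks per bin of 0.25) with each mitochondrial peak as a point in a row for its class and strand, the height of the rows having no meaning. The axis runs from -2 to 5 and leaves out 15 peaks of the other chromosomes; the mRNA and rRNA points lie to the left of most of the grey distribution, and the minus-strand tRNA points lie at 1.01 and above.

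The rRNA peaks had the lowest level per length of the classes. MT-RNR1, the rRNA of the small ribosomal subunit, had 2 peaks over 44.5% of its length, and MT-RNR2, that of the large subunit, had 6 peaks over 80.2%. The 8 rRNA peaks together had 152 RPM per kb in PRMT5 RIP and 155 RPM per kb in input, where the mRNA peaks had 10069 and 9145 RPM per kb. Whether rRNA was removed before sequencing is not given in the sources used here.

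In 7 of the 8 rRNA peaks RPM was below input, where 3.84% of all peaks in the list were. In MT-RNR1, the peak at chrM:1048-1222 had 32.9 RPM in RIP against 39.5 RPM in input, and the peak at chrM:1248-1497 had 35.2 and 40.97 RPM. The exception was in the middle of MT-RNR2, where the peak at chrM:2346-2870, which starts 675 nt from the 5′ end of the gene, had 92.9 RPM in RIP against 65.5 RPM in input, which is a log2 RPM ratio of 0.50. The other 5 peaks of MT-RNR2 lay on both sides of it, and their log2 RPM ratios ran from -0.36 to -0.16. Summed over its peaks MT-RNR2 had 186 RPM in RIP against 180 RPM in input, so the gene as a whole was near parity, while MT-RNR1 summed to 68.05 and 80.5 RPM.

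The mRNA peaks had a median log2 RPM ratio of -0.11 (19 peaks), and 13 of them were lower in PRMT5 RIP. They were not uniform: whole-gene peaks of MT-CYB and MT-ND1 stood above input, a group around parity held most of the RPM, and short peaks inside MT-CO1, MT-ATP8, MT-ND4 and MT-ND5 were the lowest mitochondrial values of all.

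MT-CYB, which codes for cytochrome b, the subunit of complex III made in the mitochondrion, had the highest mRNA ratio. Its peak covered the whole gene (chrM:14747-15887, plus strand, 1141 nt) with 18287 RPM in RIP against 9042 RPM in input, which is a log2 RPM ratio of 1.02. It was the only mRNA peak that reached 2-fold, at 2.02, and 45.7% of the peaks of the whole list had a lower ratio.

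Among the complex I genes, which code for membrane subunits of NADH dehydrogenase, MT-ND1 was the highest. Its peak (chrM:3307-4256) had 10043 RPM in RIP against 5384 RPM in input, which is a log2 RPM ratio of 0.90. MT-ND2, with 1 peak over the whole gene, had 7292 and 6338 RPM, and MT-ND3, also covered whole, had 784 and 609 RPM, so that their log2 RPM ratios were 0.20 and 0.36. MT-ND4L and MT-ND4 overlap and are read as 1 mRNA. Their shared peak had 1427 RPM in RIP against 1522 RPM in input, and the 1000-nt peak inside MT-ND4 had 6572 and 7076 RPM, both slightly below parity. MT-ND5, the longest gene of the set, differed along its length: the peak from 350 nt to its 3′ end had 2547 RPM in RIP against 1964 RPM in input, with a log2 RPM ratio of 0.37, and the 2 short peaks before it had log2 RPM ratios of -0.62 and -0.56. MT-ND6, the only mRNA gene of the minus strand, had 1037.5 RPM in RIP against 1130 RPM in input over all of its 525 nt, a log2 RPM ratio of -0.12.

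No peak of the genes of complex IV (cytochrome c oxidase) or complex V (ATP synthase) was above input. MT-CO1, the catalytic subunit, carried 4 peaks that summed to 16842 RPM in RIP against 18726 RPM in input. In order from its 5′ end their log2 RPM ratios were -0.69, -0.05, -0.20 and -0.21, the first being the lowest mitochondrial value. MT-CO2 had 13083 RPM in RIP against 15939 RPM in input over its first 525 nt, and its peak had 24920 and 30361 RPM per kb, the highest level per length of any mitochondrial peak over 50 nt. MT-ATP8, MT-ATP6 and MT-CO3 follow each other with overlapping ends, and 1 peak of 1500 nt (chrM:8441-9940) ran across all of them with 23427 RPM in RIP against 24114 RPM in input, which is a log2 RPM ratio of -0.04. This peak cannot be divided among its genes. The first 25 nt of MT-ATP8 formed a peak of their own, with 69.1 and 103 RPM and a log2 RPM ratio of -0.58.

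Short peaks accounted for the bottom of the mRNA range. The 7 mRNA peaks of 25 to 50 nt had a median log2 RPM ratio of -0.58, and 6 of them were lower in PRMT5 RIP, while the 12 wider ones had a median of -0.04 and ran from -0.28 to 1.02. On the other chromosomes the 4415 peaks of 25 to 50 nt had a median of 1.00 and the 14537 wider ones 1.13, a smaller gap between medians. The 2 sets are far apart in abundance. Median input was 0.14 RPM for the short and 1.43 RPM for the wider peaks there, against 141 and 6489 RPM for the mitochondrial mRNA peaks. The part of abundance in these gaps was not tested. By summed RPM the short peaks were lower in both places: the ratio of sums was 0.678 for the short and 1.11 for the wide mitochondrial mRNA peaks, and 0.996 and 1.66 on the other chromosomes. The exception among the short mitochondrial peaks was the last 43 nt of MT-ND4, with 34.7 RPM in RIP against 31.7 RPM in input.

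**Figure D3:**
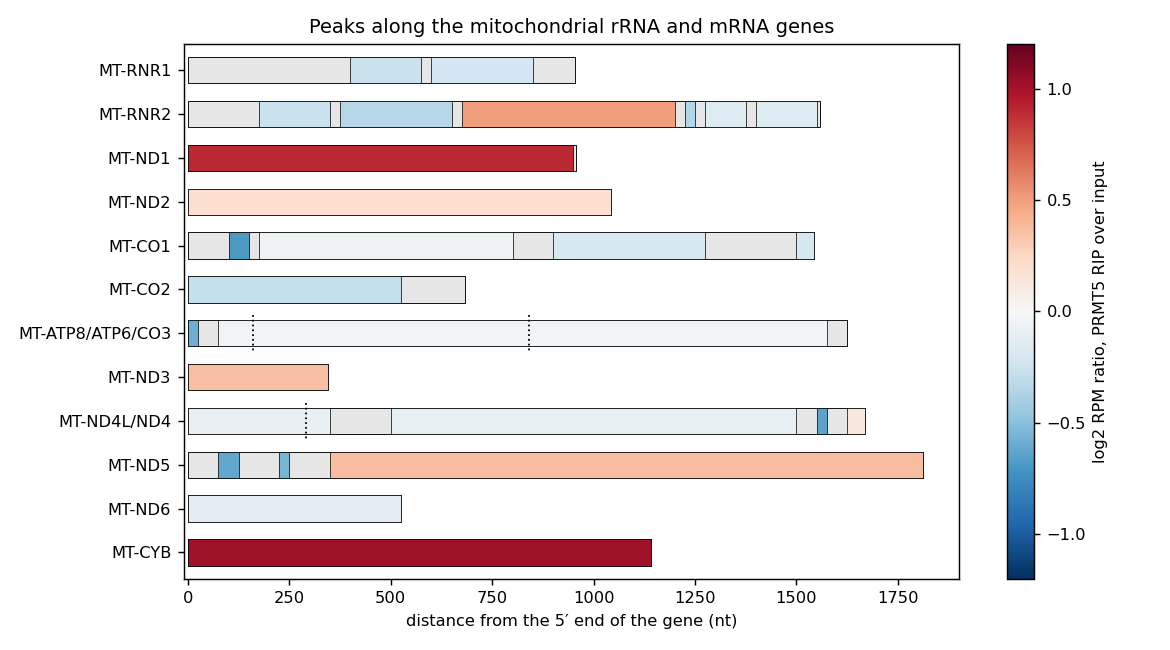
Peaks along the mitochondrial rRNA and mRNA genes, drawn to scale by distance from the 5′ end in nt, with overlapping or adjoining genes of 1 block on 1 row and dotted lines at the starts of the second and later genes. Colour gives the log2 RPM ratio (red above input, blue below) and grey marks length without a peak; MT-CYB (1.02) and MT-ND1 (0.90) are the darkest red, and the darkest blue segments are the short peaks of MT-CO1 (-0.69), MT-ND4 (-0.64), MT-ND5 and MT-ATP8.

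The tRNA peaks differed by strand. The 7 on the minus strand were all at least 2-fold higher in PRMT5 RIP than in input, with a median log2 RPM ratio of 2.09, and 5 of them were at least 4-fold higher, against 55.7% and 15.1% of all peaks in the list at these folds. The 7 on the plus strand had a median of 0.42, and 1 reached 2-fold. With a pseudocount of 1, MT-TQ on the minus and MT-TW on the plus strand no longer reached 2-fold, which left 7 mitochondrial peaks past it in place of 9. The medians differed by 1.67 on the log2 scale, and without MT-TA, the highest, by 1.65. The ranges met at a single point, since the lowest minus-strand peak (MT-TQ) and the highest plus-strand peak (MT-TW) both had a log2 RPM ratio of 1.01. Summed over the strand, the minus-strand tRNA peaks had 1061 RPM in RIP against 266 RPM in input, a ratio of 3.99, and the plus-strand ones had 90.5 and 71.1 RPM, a ratio of 1.27. With no value per library, the difference between strands could not be tested. The kit named in the labels makes strand-specific libraries, but how reads were assigned to strands is not given in the sources used here, so each minus-strand value rests on an assignment that could not be checked.

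MT-TA, the tRNA of alanine (chrM:5587-5655), had the highest ratio of the mitochondrial genome, with 123 RPM in RIP against 10.2 RPM in input, a ratio of 12.1. Of the 3952 peaks of the list with at least 5 RPM in input, it ranked number 5. Its neighbour MT-TN, the tRNA of asparagine (chrM:5657-5729), had 214 RPM in RIP against 46.2 RPM in input, a ratio of 4.64. The next peak joined MT-TC and MT-TY, the overlapping tRNA genes of cysteine and tyrosine (chrM:5761-5885), and had 397 and 129 RPM, a ratio of 3.08. These genes form a cluster on the minus strand, and across it the RPM in both libraries rose from MT-TA to the joint peak of MT-TC and MT-TY while the ratio fell.

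The remaining minus-strand tRNA genes lie outside this cluster. MT-TS1, a serine tRNA (chrM:7446-7514), had 219 RPM in RIP against 51.5 RPM in input. MT-TE, the tRNA of glutamate (chrM:14674-14742), had 36.7 and 8.60 RPM, and MT-TP, the tRNA of proline (chrM:15956-16023), had 56.3 and 13.6 RPM. The ratios of these 3 peaks were alike, at 4.26, 4.27 and 4.14. MT-TQ, the tRNA of glutamine (chrM:4329-4400), was the lowest of the strand with 13.97 RPM in RIP against 6.94 RPM in input, a ratio of 2.01, and it was also the one whose peak shares 3 nt with a plus-strand peak.

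On the plus strand MT-TW, the tRNA of tryptophan (chrM:5512-5579), had 8.28 RPM in RIP against 4.11 RPM in input. MT-TT, MT-TI and MT-TL1, the tRNAs of threonine, isoleucine and one of the leucine tRNAs, had ratios of 1.40, 1.40 and 1.34, with 15.3 to 21.9 RPM in PRMT5 RIP. MT-TM, which serves both initiation and elongation with methionine, had 17.99 and 18.3 RPM. MT-TD, the tRNA of aspartate, had 6.24 and 6.03 RPM, and MT-TG, the tRNA of glycine, of which a 25-nt stretch was listed, had 2.04 and 2.05 RPM, so that these 3 peaks were at parity. At like input levels, MT-TI with 10.95 RPM in input had 15.3 RPM in RIP, and MT-TA with 10.2 RPM in input had 123 RPM in RIP. MT-TA has the highest ratio, and other such pairs differed less. MT-TL1 with 14.01 RPM in input had 18.7 RPM in RIP, and MT-TP with 13.6 RPM in input had 56.3 RPM. MT-TD with 6.03 RPM in input had 6.24 RPM in RIP, and MT-TQ with 6.94 RPM in input had 13.97 RPM. Over the 3599 peaks of the other chromosomes with 5 to 140 RPM in input, the median log2 RPM ratio was 0.70 and 31.6% reached 2-fold.

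**Figure D4:**
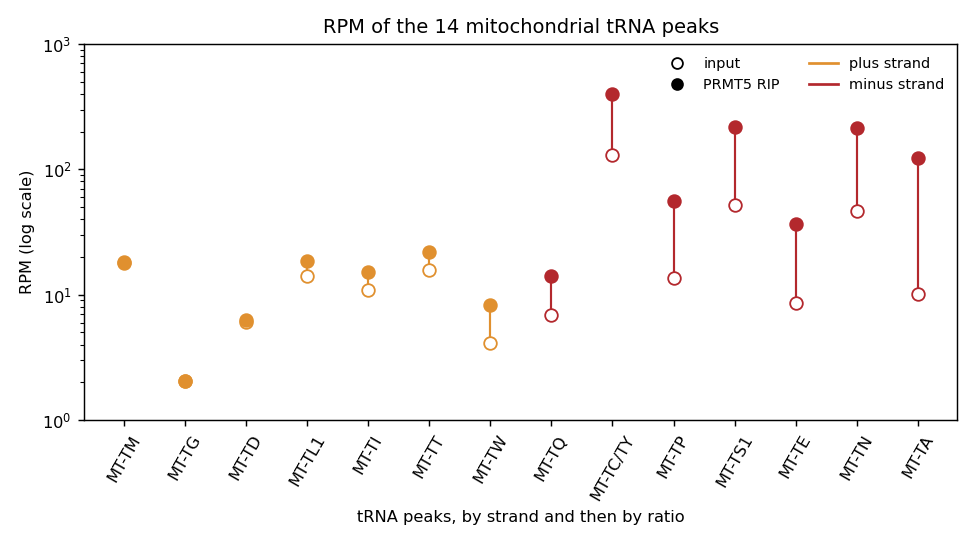
RPM of each mitochondrial tRNA peak on a log scale, open circles for input and filled circles for PRMT5 RIP, joined by a line, with plus-strand peaks on the left and minus-strand peaks on the right in order of ratio. The gap between the circles is small on the plus strand, where MT-TW has the widest, and reaches from 10.2 to 123 RPM at MT-TA on the minus strand.

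Levels along the light-strand transcript did not follow the ratios. Read in the direction of its transcription, the peaks were MT-TP, MT-TE, MT-ND6, MT-TS1, MT-TC with MT-TY, MT-TN, MT-TA and MT-TQ. Input levels were 200, 125, 2152, 746, 1032, 633, 148 and 96.4 RPM per kb in that order, and PRMT5 RIP levels were 828, 532, 1976, 3177, 3178, 2934, 1784 and 194 RPM per kb. In input MT-ND6 was the highest per length, and in PRMT5 RIP it was below MT-TS1, the MT-TC and MT-TY peak and MT-TN. MT-TE adjoins MT-ND6 in the same precursor, yet MT-TE had a ratio of 4.27 and MT-ND6 0.918.

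On the heavy-strand side the tRNA peaks had far fewer RPM per kb than the mRNA peaks. Whether RNA as short as a tRNA was captured as well as mRNA was not assessed here. The plus-strand tRNA peaks had 206 RPM per kb in PRMT5 RIP and 162 RPM per kb in input over all 7 together, against 10512 and 9528 RPM per kb for the 18 plus-strand mRNA peaks. The ratios of these sums to input were 1.27 and 1.10. On the log2 scale the summed RPM of the plus strand had a ratio of 0.14 and that of the minus strand 0.59, where MT-ND6 makes up 1130 of the 1396 RPM of the minus strand in input.

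**Figure D5:**
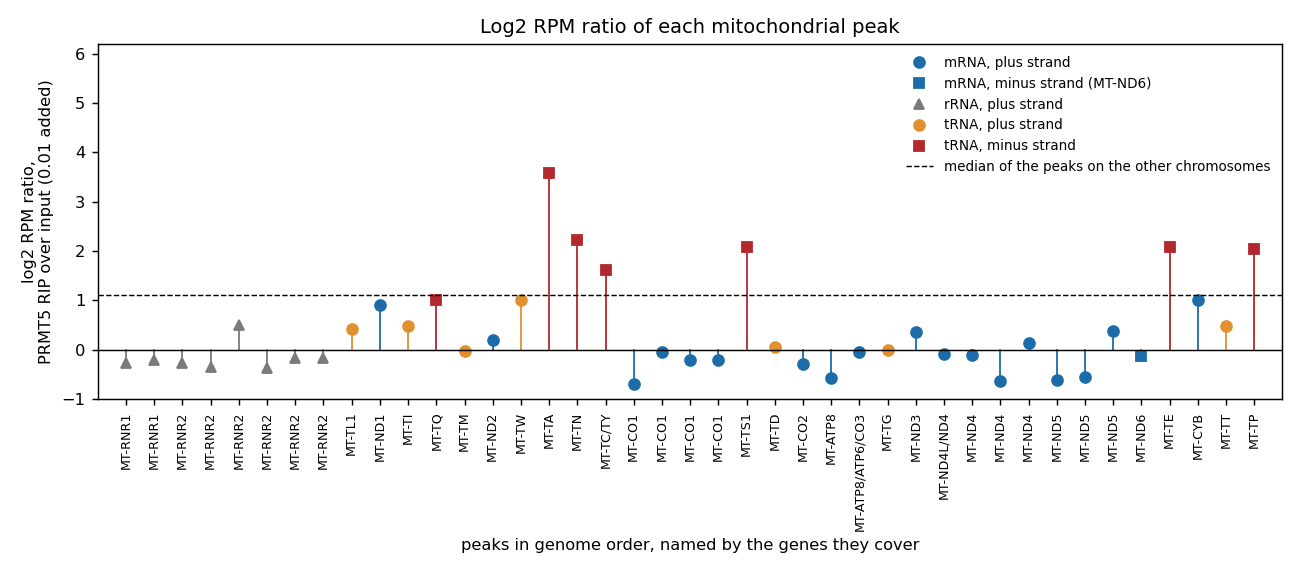
Log2 RPM ratio of each of the 41 mitochondrial peaks in genome order, colour giving the class and squares marking the minus strand, with the solid line at equal RPM and the dashed line at 1.10, the median of the peaks on the other chromosomes. Only the squares of 6 minus-strand tRNA peaks rise above the dashed line, and most mRNA and rRNA peaks lie near or below 0.

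The values in RIP followed those in input across peaks. On the log2(RPM + 0.01) scale Pearson's r over the 41 peaks was 0.970 and Spearman's rho 0.935, and over the 34 peaks that are not minus-strand tRNAs they were 0.994 and 0.990. These are descriptions across peaks of the same pooled libraries, which are not independent.

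Part of the mitochondrial genome has near-identical copies in the nuclear genome, and reads from the mitochondrion can be counted there. By symbol, RefSeq names 487 nuclear copies of mitochondrial genes, and how close their sequences are was not checked. Of these, 5 contained at least 50% of a peak, and 7 of their 8 peaks lay together on the plus strand of chromosome 1. These 7 peaks summed to 4409 RPM in RIP against 3767 RPM in input. The largest were at parity: 1783 and 1752 RPM in MTCO1P12 (chr1:631824-632323) and 1743 and 1678 RPM in MTND2P28 (chr1:629640-630039). A pair of others stood above input, MTATP6P1 (chr1:633835-634234) with 602 RPM in RIP against 165 RPM in input, and the 3′ end of MTCO1P12 (chr1:632474-632616) with 170 and 50.6 RPM. Their ratios were 3.64 and 3.35, while the mitochondrial peak that covers MT-ATP6 had 0.972 and the 3′ end of MT-CO1 0.862. The spans differ, so these are not like for like. The MTATP6P1 peak has 400 nt against 1500 nt across 3 genes, and the MTCO1P12 peak has 143 nt against 42 nt in MT-CO1. How reads that match both places were shared is not given in the sources used here, so the mitochondrial values are uncertain to that extent. The chromosome 1 copies run from MTND1P23 to MTCO3P12, and in the mitochondrion the same stretch also holds MT-TQ, MT-TA, MT-TN, MT-TC, MT-TY and MT-TS1. A peak of 86138 nt on the minus strand (chr1:612812-698949) spans these chromosome 1 copies, with 630 RPM in RIP against 593 RPM in input. At most 1.79% of it lay in any single copy, so it is not among the 8 peaks. Whether its reads came from the copies was not tested. The peak on chromosome 5 lay in MTND4P12, a copy of MT-ND4.

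Nuclear genes whose products work with the mitochondrial ones had median ratios between those of the mitochondrial mRNAs and rRNAs and that of all named nuclear genes. Summed RPM kept this order only in part. Taking the median log2 RPM ratio over the peaks of each gene, 59 of 87 nuclear genes for respiratory chain and ATP synthase subunits had a named peak, and their median was 0.70, with 5 genes below 0. For the mitochondrial ribosomal proteins, 62 of 77 genes had a named peak, with a median of 0.68 and no gene below 0 (0 of 62). For genes that make, cut, modify or degrade mitochondrial RNA, 24 of 45 had a named peak, with a median of 1.04. The same value over all 6008 named nuclear genes was 1.24, and 64.7% of them reached 2-fold, against 32.2% and 37.1% of the subunit and ribosomal protein genes and 12 of the 24 RNA genes. These 6008 genes stand against 59778 RefSeq symbols of all gene types, whereas the lists hold protein-coding genes only. The counts of genes with a named peak therefore have no like-for-like background. By summed RPM the ratios were 1.69 for the subunits, 1.90 for the ribosomal proteins and 1.96 for the RNA genes, against 1.91 for all named genes. The lists were also more abundant, with a median input per gene of 62.7, 14.9 and 3.23 RPM against 2.35 RPM, and the part of abundance in their medians was not tested. The last list included ELAC2, which cuts the 3′ ends of mitochondrial tRNAs, with a median log2 RPM ratio of 1.56, and LRPPRC, which stabilises mitochondrial mRNAs, with 0.65. The nuclear genes for cytochrome c oxidase subunits spanned a wide range, from COX4I1 with 336 RPM in RIP against 108 RPM in input, summed over its peaks, to COX6A1 with 426 and 454 RPM, which like MT-CO1 and MT-CO2 was below input.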

How the data were processed

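The deposited list gives RPM values (reads scaled to a library total by the authors) for RIP-seq of 2 PRMT5 RIP and 2 input libraries, pooled within each group and rounded to 0.01. The submitters' processing notes name fastp, HISAT2 and hg38. The peak caller, the counting, the strand setting, the annotation and the RPM total are not given in the sources used here. Depth per library is unknown, so no interval or floor was computed. The columns that hold the authors' own tests (a fold change with its p-value and FDR for each peak) were not used.

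Peak starts were raised by 1. Each chrM peak was given to the gene of its own strand in RefSeq (GRCh38.p14) with the largest overlap. Strands and classes of genes were written from general knowledge. Nuclear identifiers were named from the study's table or from the single RefSeq gene their peaks touched, 6009 of 8490 in all, so antisense and overlapping genes are uncertain. All chrM genes with a peak were to be named. The members, lists and alternatives were chosen with earlier results of these data known. Alternatives covered pseudocount, low values, peak width, centring, summing, gene assignment and opposite-strand overlap, and a value that moved by less than 0.1 was counted as unmoved. The summaries were tested on simulated data. Python 3.11.15, pandas 2.3.3, numpy 2.4.6, scipy 1.17.1 and matplotlib 3.10.9 were used. Mitochondrial sequences were not used here.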

Additional observations from a re-analysis of the deposited data

How the results depend on the processing

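No paired analysis was possible because the list holds 1 pooled value per group, and for the same reason no library was left out. Of 64 comparisons with an alternative, 50 kept their sign and moved by less than 0.1 or, for counts, less than 1.5 times. Some of these 50 could not move, so the count overstates stability. A minimum of 1 RPM in input removed no peak, the lowest having 2.05 RPM. Taking the first identifier changed no class, and centring cannot alter a difference between strands. With a pseudocount of 1 the tRNA median was 0.89. Without the peaks that overlap the opposite strand (MT-TI and MT-TQ), the tRNA median was 1.32 and the tRNA difference of plus minus minus strand -1.86, from 1.01 and -1.67. The median over all peaks, -0.03, became 0.13 with peaks of at least 50 nt, so its sign carries no weight. Centred on the other chromosomes, it was -1.13, mRNA -1.21, rRNA -1.34 and tRNA -0.091. By summed RPM the values were 0.15 for all peaks, 0.14 for mRNA, -0.032 for rRNA, 1.77 for tRNA and -0.45 for the difference of plus minus minus strand, from -2.16 by medians, because sums are led by the peaks with the highest RPM (MT-ND6 on the minus strand). The log2 ratio of the mitochondrial shares was -0.48 over the list, and that of the mitochondrial RPM sums themselves was 0.15. The latter is a ratio of shares of all reads only if RPM was scaled to all reads, which is not given. This alternative was chosen after seeing the data, as were leaving out MT-TA and keeping mRNA peaks of over 50 nt. The antisense comparison was not run, because no peak was antisense. The unknown depth limits low values most, such as 2.04 RPM at MT-TG and 4.11 RPM in input at MT-TW.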
